A study of Mus musculus with 6 samples.

Results

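The cells described here are goblet cells of mouse small intestinal organoids that carried few Paneth cell transcripts, 2901 of the 87954 cells kept in 6 single-cell libraries. A cell was kept with 1000 or more genes and under 20% of its unique molecular identifiers (UMIs, each marking 1 captured transcript) from mitochondrial genes. A kept cell was taken as a goblet cell when Fcgbp, Muc2, Clca1 and Zg16 together reached 10 per 10000 UMIs. Cells with 3 or more of the 5 Paneth genes Defa17, Defa24, Mmp7, Ang4 and Itln1 at 5 or more per 10000 UMIs were left out, as were cells with Chga and Chgb together at 10 or more per 10000 UMIs. The cells were thus chosen by measured levels of these genes, so the levels of these genes, and of any gene against the other cells, are given as description without a test.

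All organoids were collected on day 3 of growth and had been started from adult mice of 10 weeks of age, per the methods. WT organoids received DMSO (-EIPA, 2 libraries) or 5 µM EIPA in the dose the methods state (+EIPA, 2 libraries). EIPA, 5-(N-ethyl-N-isopropyl)-amiloride, blocks sodium-proton exchange. Inducible CRISPR-Cas9 organoids, infected with a lentivirus that carries a guide to the first exon of the targeted gene, were left without doxycycline (-Dox, 1 library) or received 2 µg/mL of it (+Dox, 1 library). Both CRISPR libraries carry the construct and, per the methods, come from puromycin-selected organoids grown out as single clones, so clone and genotype cannot be told apart. Cells were sorted as live, and those of +Dox also as GFP-positive, a gate the -Dox cells did not pass through. The WT libraries are 2 separate experiments, and p-values measure the spread between these libraries alone.

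Goblet cells are the mucus-secreting cells of the intestinal epithelium. They arise from crypt progenitors in which NOTCH signalling is low and the transcription factor ATOH1 is active, a route they share with Paneth and enteroendocrine cells, and SPDEF then drives their maturation. MUC2, the gel-forming mucin, is folded and cross-linked in the endoplasmic reticulum, glycosylated in the Golgi and stored in granules. FCGBP, CLCA1, ZG16 and the trefoil peptide TFF3 are secreted with it.

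The kept cells held 161670015 to 239368573 UMIs per library, with a median of 11477.5 to 17020 per cell. The goblet cells gave 5515945 to 7574708 UMIs per library, 9328.5 to 10207 per cell at the median in 4 libraries and 13532 and 15711 in +EIPA replicate 2 and +Dox. Between 17.8% and 27.6% of goblet cells lay among the 10% of cells with the highest doublet score of their library, the largest share in +EIPA replicate 2. Any 2 libraries shared 33 to 78 cell barcodes among kept cells and at most 1 among goblet cells. None of the 8 markers of blood, stromal, endothelial and muscle cells passed the filter on low counts in goblet cells, and 5 of them were at 0 in every library.

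Levels are given in CPM, the UMIs of a gene per 1000000 UMIs of the goblet cells of a library summed. Among the genes that chose the cells, Fcgbp, an IgG-Fc-binding mucus protein at chr7:28071236-28120862, was at 3707 and 2813 CPM in -EIPA, 3452 and 3546 CPM in +EIPA, 4267 CPM in -Dox and 4823 CPM in +Dox. Muc2, at chr7:141690340-141754693, was at 555 and 445 CPM in -EIPA, 693 and 726 CPM in +EIPA, 1201 CPM in -Dox and 1690 CPM in +Dox. Clca1, a mucus-processing metalloprotease at chr3:145003817-145032776, was at 273 and 255 CPM in -EIPA, 530 and 903 CPM in +EIPA, 310 CPM in -Dox and 744 CPM in +Dox. Zg16, a lectin that binds bacteria at chr7:127050156-127087328, was at 1764 and 984 CPM in -EIPA, 2164 and 3255 CPM in +EIPA, 2231 CPM in -Dox and 5669 CPM in +Dox. Muc2, Clca1 and Zg16 were thus higher in each +EIPA library than in either -EIPA library, as 14.6% of all genes tested were, and higher in +Dox than in -Dox. Since these 4 genes are part of the rule, no test is given for them.

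Genes the rule did not use were also those known from goblet cells. Tff3, at chr17:31125306-31129646, was at 11157 and 10845 CPM in -EIPA, 11229 and 14413 CPM in +EIPA, 15015 CPM in -Dox and 21127 CPM in +Dox, which is 5.59-fold to 16.0-fold its level in all other kept cells. Of the 22 goblet genes listed for a check, 20 were above the other cells in all 6 libraries. The exceptions were Ccl6 (5 libraries) and Scin (4 libraries). Agr2, the disulfide isomerase that MUC2 needs, was 9.06-fold to 19.5-fold higher, Spdef 6.40-fold to 22.0-fold, and the calcium-dependent protease Capn9 9.40-fold to 37.1-fold. Ranked by the lowest ratio over the libraries with 20 CPM added, the leading genes outside the rule were Agr2, Tff3, Rep15 (a RAB15 effector), Klf4 (a zinc-finger factor of goblet differentiation) and Txndc5 (a disulfide isomerase). These genes were not particular to the cells described. Summed over the 22 listed genes, the cells with goblet genes left out for their Paneth genes were higher in all 6 libraries. They stood at 50423 to 60722.5 CPM, against 26773 to 45591 CPM in the goblet cells described here.

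**Figure D1:**
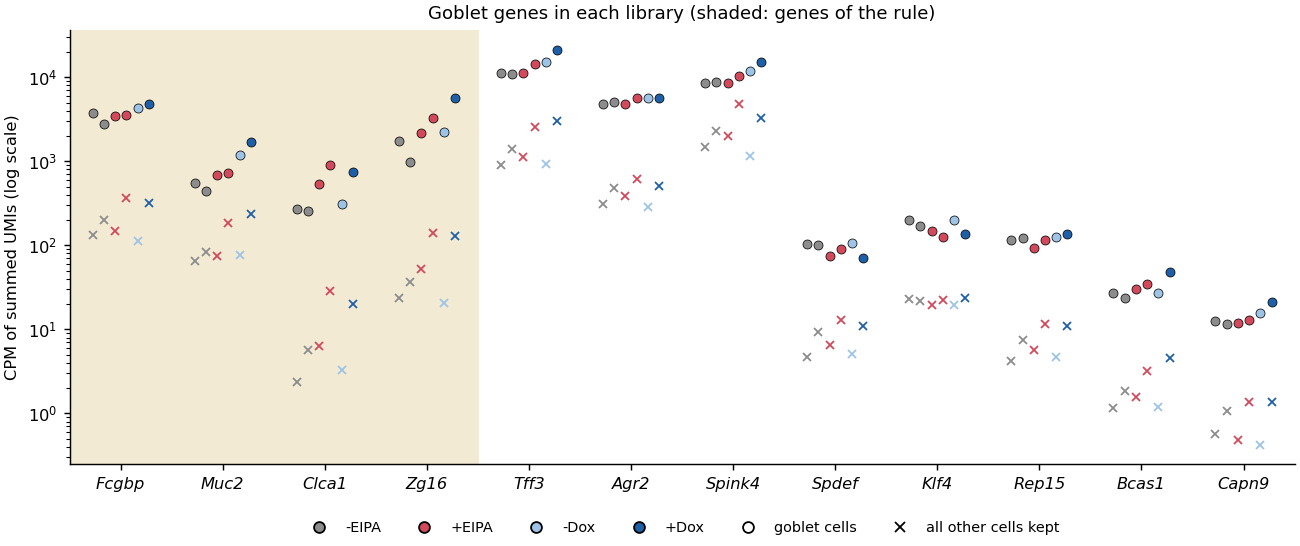
CPM of summed UMIs on a log axis for 12 goblet genes, with a filled circle for the goblet cells and a cross for all other cells kept of the same library; colours mark the treatment and libraries stand in the order -EIPA 1 and 2, +EIPA 1 and 2, -Dox, +Dox. Every circle lies above its cross, also for the 8 genes outside the shaded block of genes that chose the cells, such as Tff3.

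The 250 bases before the RefSeq start of Muc2 (GRCm38.p6, chr7:141690090-141690339, plus strand) are shown because Muc2 defines the cell type. Capitals mark TGAATCA at -151 to -145, a match to the AP-1 motif when written TGANTCA with any base at N. They also mark the E-box CAGCTG, a sequence that factors of the ATOH1 type bind, at -112 to -107. Both were searched on either strand.
Muc2: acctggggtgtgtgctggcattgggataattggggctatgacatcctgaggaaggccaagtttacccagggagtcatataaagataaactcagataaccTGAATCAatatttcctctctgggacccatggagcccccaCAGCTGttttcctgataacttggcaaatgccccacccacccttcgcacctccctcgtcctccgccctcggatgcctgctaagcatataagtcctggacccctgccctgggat
Of 32851 RefSeq promoter windows of this length, 6.75% held TGANTCA and 13% held CAGCTG. A match describes letters and is no evidence of binding.

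Paneth transcripts were not absent from these cells. Defa24, a Paneth defensin, was at 3305 and 2238 CPM in the -EIPA goblet cells, 3968 and 2659 CPM in +EIPA, 3188 CPM in -Dox and 3984 CPM in +Dox. Absorptive cells, which should lack it, were chosen under the same limit on Paneth genes and held 295 to 1005 CPM. The cells with goblet genes that failed on the Paneth genes held 59880 to 87482 CPM. Lyz1, the Paneth lysozyme, which the rule did not use, was at 966 to 3906 CPM in goblet cells against 45.8 to 340 CPM in absorptive cells and 10163 to 24941 CPM in the cells that failed. Mptx2, a further Paneth gene outside the rule, was at 0.941 to 11.6 CPM in goblet cells and at 132 to 407 CPM in those that failed. The goblet cells thus lay between absorptive and Paneth-gene cells for the defensin and lysozyme and near the absorptive cells for Mptx2. "Without Paneth genes" holds for them as the rule counts such genes.

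Of the cells kept, goblet cells were 4.52% in the first -EIPA replicate, with exact binomial bounds (95%) of 4.17 and 4.90, and 2.99% in the second (2.75 to 3.25). They made up 3.50% (3.19 to 3.83) and 2.21% (1.97 to 2.46) in +EIPA, 3.85% (3.57 to 4.15) in -Dox and 2.74% (2.46 to 3.05) in +Dox. Each treated library was thus below its untreated partner, with a ratio of 0.774 in the first EIPA experiment and 0.738 in the second, while the shares of the EIPA groups overlapped. The intervals cover counting error only, and 2 libraries against 2 allow no two-sided permutation p below 0.333.

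The lower share was not seen under each choice of cells. Without the limit on Paneth genes, an alternative chosen after seeing the data, cells with goblet genes made up 8.79% and 9.58% in -EIPA, 9.06% and 14.6% in +EIPA, 7.91% in -Dox and 15.9% in +Dox. The EIPA ratios were then 1.03 and 1.52. With the Paneth genes counted at 20 or more per 10000 UMIs, also chosen afterwards, they were 0.886 and 1.12. With that limit kept at 5 but 50 or more mucus UMIs per 10000 required, they were 0.780 and 1.21. The 6534 cells with goblet genes and 3 or more Paneth genes outnumbered the cells described here.

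The Paneth limit itself moved with the library. Among absorptive cells, themselves chosen under the Paneth limit, 18.0% and 67.7% passed 5 Defa24 UMIs per 10000 in -EIPA, 29.5% and 94.1% in +EIPA, 18.3% in -Dox and 88.9% in +Dox. For Defa17 these shares were 0.447% and 12.4%, 0.769% and 43.7%, 3.03% and 18.9%. In the barcodes under 1000 genes, Defa24 was at 2641 and 6308 CPM in -EIPA, 3859 and 11816 CPM in +EIPA, 2626 CPM in -Dox and 14655 CPM in +Dox. Each treated library was above its untreated partner in all 3 measures. The part of this in the share of goblet cells was not tested, nor that of the mucus transcripts in the same barcodes, given above.

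**Figure D2:**
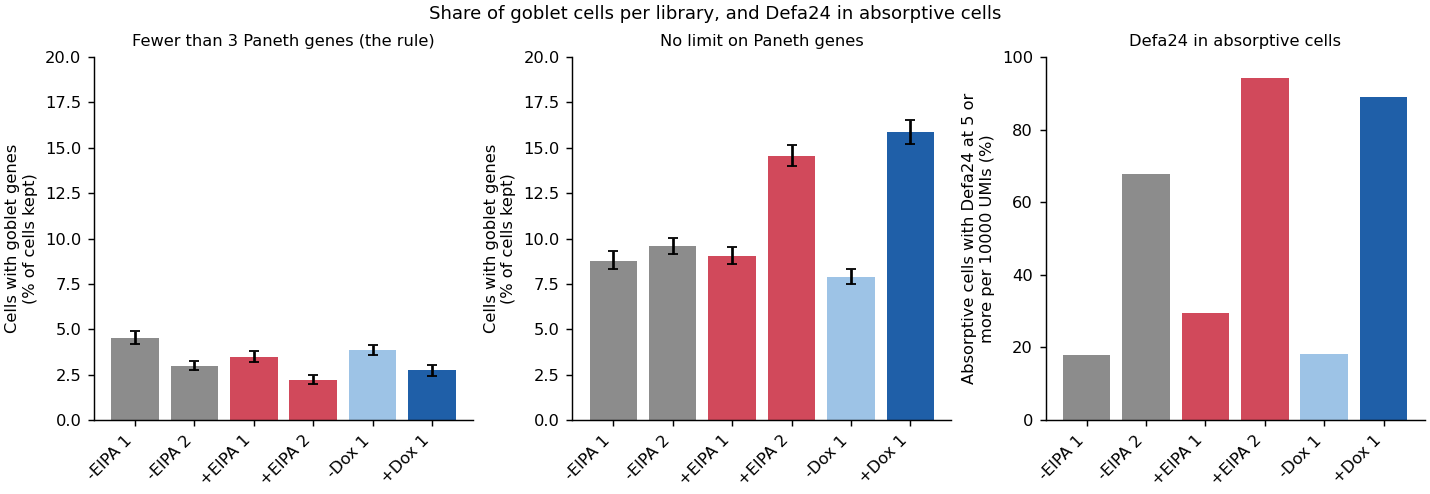
Left and middle, cells with goblet genes as a percentage of the cells kept in each library, with bars for the 95% exact binomial interval, under the rule and without its limit on Paneth genes; right, the percentage of absorptive cells with Defa24 at 5 or more per 10000 UMIs. Under the rule the treated libraries lie at 2.21% to 3.50%, and without the Paneth limit +EIPA replicate 2 and +Dox stand highest at 14.6% and 15.9%, as they do for Defa24 in absorptive cells.

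Just above the threshold of the 4 mucus genes, the 22 to 66 cells per library at 10 to 12 per 10000 UMIs had Tff3 at 3750 to 5660 CPM and Spdef at 41.5 to 79.9 CPM. Just below it, the 38 to 94 cells at 8 to 10 had Tff3 at 3208 to 5082 CPM and Spdef at 33.0 to 63.5 CPM. The ranges over libraries overlapped. Within libraries, the cells just above the threshold were higher than those just below it in 5 of 6 libraries for Tff3 and in 5 of 6 for Spdef.

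Goblet cells varied widely in mucus gene content. The median sum of the 4 genes was 29.8 and 24.3 per 10000 UMIs in -EIPA, 32.5 and 33.0 in +EIPA, 33.1 in -Dox and 41.8 in +Dox, and the highest single cells reached 1047 to 1936. Cells with 100 or more per 10000 made up 13.5% and 11.6% of goblet cells in -EIPA, 16.7% and 22.2% in +EIPA, 19.3% in -Dox and 32.0% in +Dox. Each treated library held a larger share of such cells than its untreated partner. The same order held for the 4 genes summed in the barcodes under 1000 genes, given above, and its part in these shares was not tested. In absorptive cells the median sum was 0 to 0.817, and 99% of them stayed under 4.85 to 6.73. These cells were chosen with the sum below the goblet threshold. Their low values thus cannot show how well that threshold separates the classes.

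Several genes outside the rule followed this order, given here as the median over the 6 libraries for cells at 10 to 20 and at 100 or more mucus UMIs per 10000. Tff3 was at 5536 and 34679 CPM, Agr2 at 2164 and 12482 CPM, and Sytl2, which tethers secretory granules, at 34.0 and 222 CPM. The goblet factors Spdef (69.2 and 134 CPM), Atoh1 (44.2 and 87.7 CPM) and Klf4 (113 and 281 CPM) were higher in the second class. So were Foxa3 (72.6 and 126 CPM), Xbp1 (141 and 225 CPM) and Ern2, the goblet-type sensor of endoplasmic reticulum stress (48.9 and 98.0 CPM). Creb3l1 was near equal (112 and 119 CPM), below its 158 and 152 CPM in the middle classes. Hes6 (127 and 94.9 CPM) and Dll1 (79.3 and 65.5 CPM) were lower in the second class. Proliferation genes were lower there as well, with Mki67 at 171 and 39.2 CPM and Top2a at 190 and 55.4 CPM. The stem cell genes Lgr5 (46.5 and 19.6 CPM) and Olfm4 (749 and 306 CPM) did the same. The class at 10 to 20 also held more cells with a top doublet score, 22.1% to 34.4% over the libraries, than the class at 100 or more, with 3.90% to 17.1%. The part of doublets in these differences was not tested.

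Fos and Atf3, which differed with EIPA as described next, were also higher in the highest than in the lowest class of mucus content. Fos was at 283 CPM in the lowest and 586 CPM in the highest class at the median, and Atf3 at 33.4 and 167 CPM. Genes called higher with EIPA did the same, Sprr1a at 3.35 and 306 CPM, Ly6a at 18.8 and 116 CPM, Lgals3 at 78.0 and 266 CPM and Emp1 at 20.8 and 49.5 CPM. In -EIPA Sprr1a was at 2.93 and 3.77 CPM in the lowest class, and no library was below 59.2 CPM in the highest. The part of mucus content in the EIPA differences was not tested. Of other genes, Scin, an actin-severing protein of mature goblet cells, was at 9.10 and 83.9 CPM, and Krt20, a keratin of the villus epithelium, at 36.9 and 160 CPM. Itln1, a lectin shared by goblet and Paneth cells, was highest in the middle classes, at 3754 CPM between 50 and 100 mucus UMIs per 10000. No test was made across these classes, since the rule's own genes define them.

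**Figure D3:**
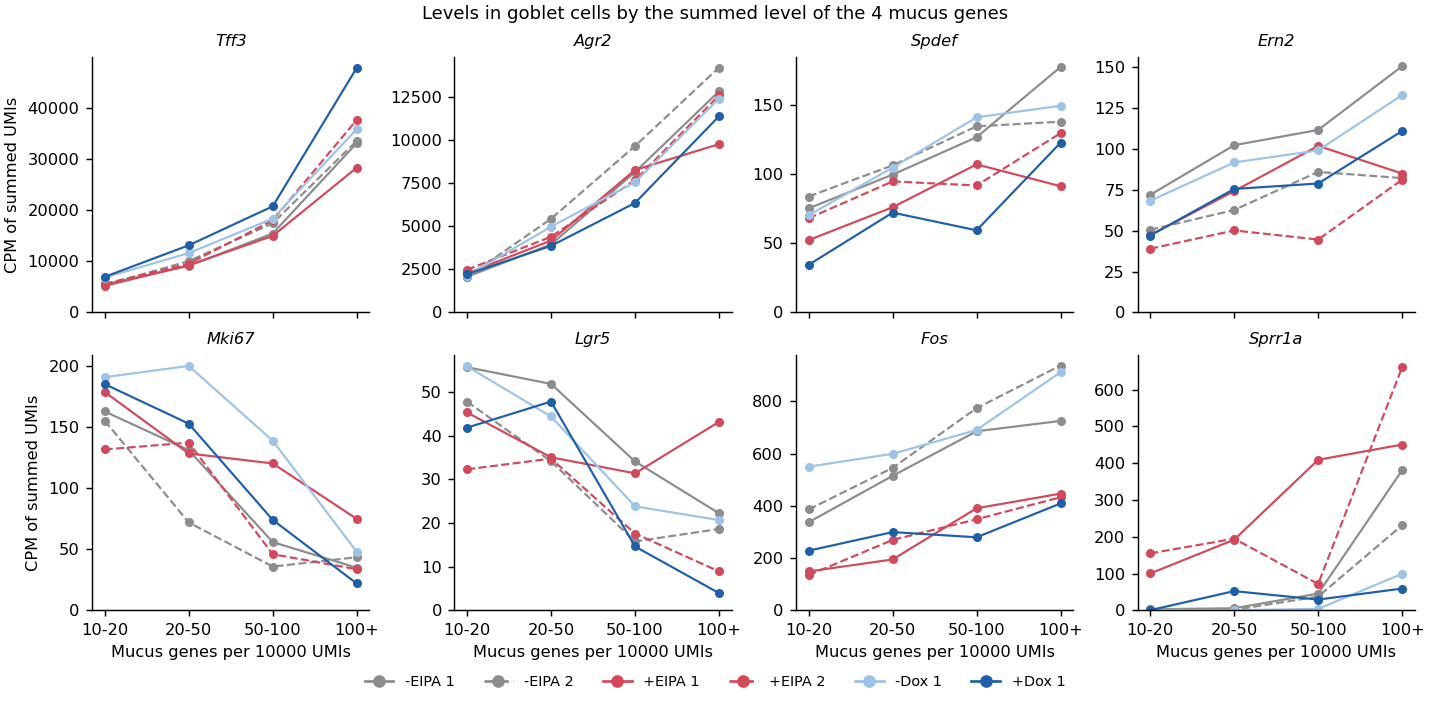
CPM of summed UMIs in goblet cells for 8 genes against the summed level of the 4 mucus genes in 4 classes per 10000 UMIs; each line is 1 library, dashed for replicate 2. Tff3 and Agr2 climb in all 6 libraries, Mki67 is lower in the highest than in the lowest class throughout, and Fos lies lower in the +EIPA and +Dox libraries in every class.

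With EIPA, genes known from injured epithelium such as Sprr1a and Ly6a and enterocyte genes such as Apoc2 and Gsta1 rose in goblet cells, as did Gip through a few cells, and lower levels were called for the immediate early factors Fos, Jun and Atf3. edgeR's quasi-likelihood test on UMIs summed per library called 27 of 11017 genes at an adjusted p under 0.05, which is 0.245% of those tested. Of these, 24 were higher (0.218%) and 3 were lower (0.0272%), and 899 genes had an unadjusted p under 0.05. With the experiment as a block the count was 392, and DESeq2 called 87. The 27 genes were called in both. The block fit left 1 residual degree of freedom per gene, so its calls rest largely on the spread shared over genes. Fits that left out 1 library called 55 to 264 genes, 25 of the 27 among them without +EIPA replicate 2 and all 27 in the others, but set 1 library against 2, so that the spread came from the other group alone. Of 7 other choices of cells, 3 ended most of the calls. Among cells with 50 or more mucus UMIs per 10000 edgeR called 0 genes, with 562 at an unadjusted p under 0.05. The 26 of the 27 tested there kept their direction. Fitted apart, the class at 50 to 100 gave 3 genes called higher of 6674, and that at 100 or more 19 higher and 1 lower of 6433. Among cells with 0 Paneth genes 1 of the 24 with a value was called. That choice left 159 and 32 cells in -EIPA and 110 and 9 in +EIPA. Without the Paneth limit 7 of the 27 were called. With Paneth genes counted at 20 per 10000 UMIs 14 of the 27 were called, at 20 or more mucus UMIs 22 of the 26 tested, and all 27 with strict limits on cells or without the cells of highest doublet score.

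Sprr1a, a small proline-rich protein of the cornified envelope that injured epithelium switches on, was at 48.3 and 28.4 CPM in -EIPA and at 225 and 249 CPM in +EIPA. This was a change of 2.68 on the log2 scale, with an SE of 0.24 and an adjusted p of 0.0228. Both treated libraries lay far above both untreated ones. The UMIs were concentrated, since 5 cells held 78.6% and 78.4% of them in -EIPA and 36.7% and 44.8% in +EIPA. Outside those 5 cells Sprr1a stood at 10.4 and 6.12 CPM in -EIPA against 142 and 138 CPM in +EIPA, so the groups stayed apart.

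Ly6a, the surface antigen Sca-1, which marks the injured and fetal-like epithelium, was at 16.6 and 29.4 CPM in -EIPA and 94.5 and 166 CPM in +EIPA (log2 fold change 2.56, SE 0.34, adjusted p = 0.0447). Of goblet cells, 6.84% and 10.8% had a Ly6a UMI in -EIPA and 16.9% and 34.6% in +EIPA. With each cell thinned to 2000 UMIs these shares were 2.82% and 3.51% against 7.14% and 12.7%, beside 0.0560% to 1.11% in absorptive cells of the 4 libraries. The +EIPA libraries were therefore above the -EIPA libraries at equal depth as well.

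Lgals3, the lectin galectin-3, was at 92.1 and 78.3 CPM in -EIPA and at 277 and 515 CPM in +EIPA, or 2.28 ± 0.29 (SE) on the log2 scale at an adjusted p of 0.0447. Of the 12 genes listed as regenerative, 9 could be tested and all 9 had positive fold changes. Sprr1a and Ly6a were the 2 called, where 0.218% of all genes were called higher. The median log2 fold change of the 9 was 2.24, beside -0.01 over all genes tested. Areg, an EGF receptor ligand, stood at 60.2 and 85.3 CPM against 158 and 304 CPM (adjusted p = 0.0916), and Anxa3, a membrane-binding annexin, had a log2 fold change of 2.24 (adjusted p = 0.0681). Clu, clusterin, which marks revival stem cells, had a log2 fold change of 1.78 with an SE of 0.86 and was not called. With the experiment as a block, which called 3.14% of all genes higher, all 9 were called. This list and the others were chosen with earlier results of these data known. Their counts beside all genes thus describe the lists and are no independent support. The summed level of the regenerative list was 224 and 361 CPM in -EIPA and 806 and 1478 CPM in +EIPA goblet cells. It was also higher with EIPA outside them, at 131 and 207 CPM against 293 and 576 CPM in all other cells, where its median log2 fold change was 1.62, and at 183 and 211 CPM against 473 and 424 CPM in the barcodes under 1000 genes. The part of transcripts from other cells in the goblet levels was not tested.

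**Figure D4:**
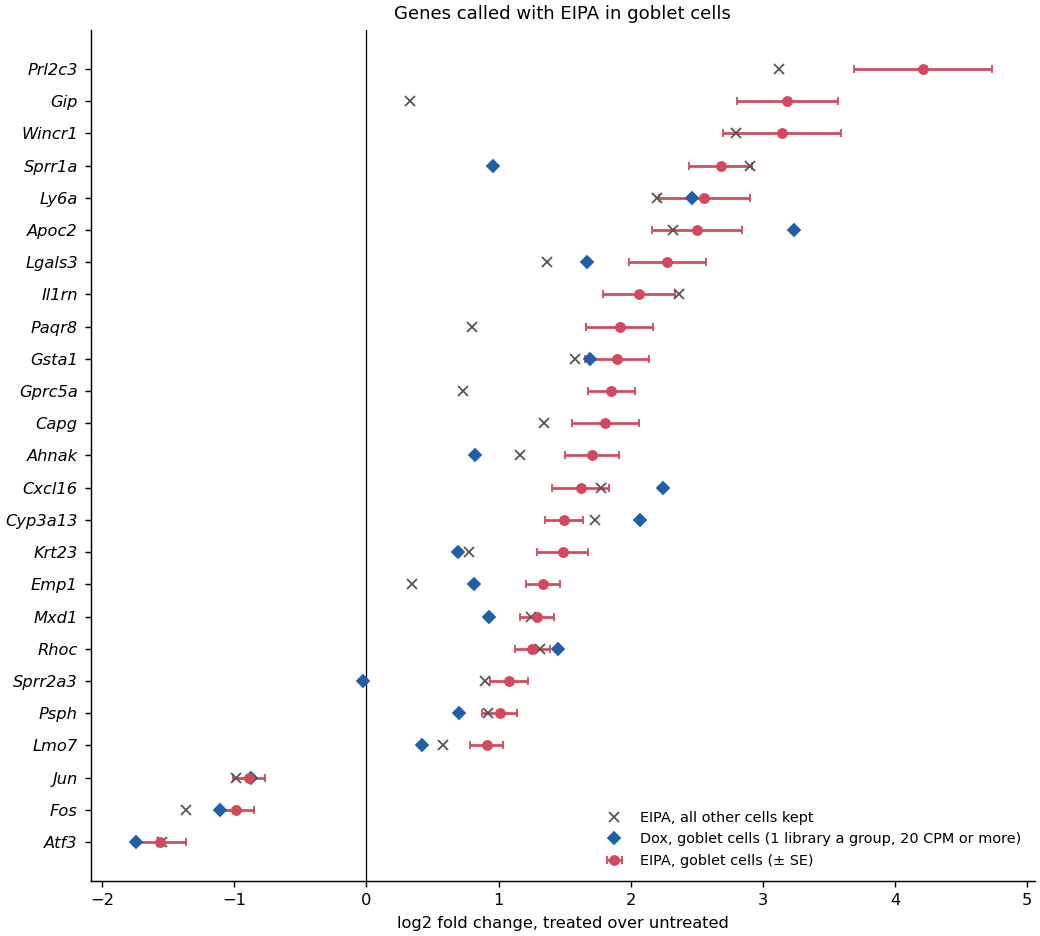
Log2 fold change of 25 of the 27 genes called with EIPA in goblet cells (red circles, bars ± SE, 2 libraries a group), with EIPA in all other cells kept (crosses) and with Dox in goblet cells (blue diamonds, 1 library a group, shown for genes at 20 CPM or more in either library). Atf3, Fos and Jun lie left of 0 in all 3 measures, and Gip, Emp1 and Gprc5a lie further right in goblet cells than in the other cells.

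The other called genes above 20 CPM on average included 3 genes of lipid handling or detoxification, Apoc2, Gsta1 and Cyp3a13. Apoc2, a cofactor of lipoprotein lipase, was at 32.3 and 14.5 CPM in -EIPA and 108 and 147 CPM in +EIPA (log2 fold change 2.50, adjusted p = 0.0447). Gsta1, a glutathione transferase with close paralogs, was at 273 and 202 CPM against 671 and 1028 CPM (1.90, adjusted p = 0.0447). Cyp3a13, a cytochrome P450, was at 29.8 and 30.9 CPM against 77.4 and 87.9 CPM (adjusted p = 0.0228). In all 3 genes the treated libraries lay above the untreated ones.

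All 22 listed absorptive genes, 1 of which passed the filter on low counts through the +EIPA libraries alone, had positive fold changes, with a median log2 fold change of 1.29, beside -0.01 over all genes tested, and 2 of them, Apoc2 and Gsta1, were called, where 0.218% of all genes were called higher. With the experiment as a block 20 of the 22 were called, where 3.14% of all genes were. Fabp1, the fatty acid-binding protein that leads the list by level, was at 1151 and 608 CPM in -EIPA and 1910 and 2958 CPM in +EIPA (log2 fold change 1.53, adjusted p = 0.128). Apoa1, the HDL apolipoprotein, was at 208 and 95.7 CPM against 442 and 815 CPM (2.11, adjusted p = 0.0978). The summed level of the list in goblet cells was 3720 and 2473 CPM in -EIPA and 6048 and 8797 CPM in +EIPA. It was also higher with EIPA outside them, at 8622 and 5228 CPM against 13847 and 10289 CPM in the barcodes under 1000 genes and at 10287 and 5747 CPM against 18280 and 15953 CPM in all other cells. None of the list's 22 genes was at 0 in goblet cells, and the part of transcripts from absorptive cells in these differences was not tested.

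Of cytoskeletal and membrane genes, Capg, which caps actin filaments (log2 fold change 1.81), Ahnak, a large membrane scaffold (1.71), Rhoc, a small GTPase (1.26), Krt23, a keratin (1.48), and Lmo7, a junction protein (0.91), were called higher. Emp1, an epithelial membrane protein, was at 20.4 and 21.5 CPM in -EIPA against 52.8 and 49.9 CPM in +EIPA (1.34, adjusted p = 0.0228). Signalling genes called higher were the chemokine Cxcl16 (1.62), the interleukin 1 antagonist Il1rn (2.06), the receptor Gprc5a (1.85) and the MYC antagonist Mxd1 (1.29). Sprr2a3 (1.08) has near-identical copies among which reads can be split, so its value is uncertain. Paqr8, Prl2c3 and Wincr1 were at under 12 CPM in every library, and the latter pair passed the filter on low counts through the +EIPA libraries alone.

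Gip, the hormone of enteroendocrine K cells, at chr11:96024545-96030831, was at 16.9 and 37.8 CPM in -EIPA and at 310 and 176 CPM in +EIPA (log2 fold change 3.19, adjusted p = 0.0412). In +EIPA replicate 1, 1250 of its 1762 UMIs came from a single cell, and in replicate 2, 483 of 972. Without the 5 cells with most Gip UMIs in each library, its level was 15.2 and 35.2 CPM in -EIPA and 21.5 and 16.7 CPM in +EIPA, and the groups overlapped. Prl2c3 was the only other called gene whose groups overlapped in this way. The other 22 genes called higher and the 3 called lower kept their groups apart.

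Fos, an AP-1 subunit at chr12:85473890-85477273, fell from 497 and 531 CPM in -EIPA to 240 and 262 CPM in +EIPA, or -0.98 ± 0.13 (SE) on the log2 scale at an adjusted p of 0.0447. Jun, its partner at chr4:95049034-95052222, fell from 361 and 383 CPM to 205 and 184 CPM (-0.89, SE 0.12, adjusted p = 0.0491). Atf3, a stress-induced factor of the same bZIP family at chr1:191170296-191218039, fell from 102 and 126 CPM to 44.7 and 30.1 CPM (-1.56, SE 0.20, adjusted p = 0.0447). The untreated and treated libraries were well apart for each. Fosb was at 91.6 and 48.8 CPM against 25.7 and 19.2 CPM (-1.60) and was not called (adjusted p = 0.0887), while it was with the experiment as a block (adjusted p = 0.000269) and in 7 of the other 14 alternatives.

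Beside Dll1 and Sox4, described further on, 4 more genes at a mean of 20 CPM or more were among the 10 of smallest p on the lower side, none of them called in the fit described here. All 4 were called with the block, Gm14207 in that fit alone, while with no filter on low counts Hbegf, Btg2 and Edn1 were called, with DESeq2 Hbegf and Btg2, and without -EIPA replicate 1 Hbegf and Edn1. Hbegf, a ligand of the EGF family, was at 90.5 and 98.0 CPM in -EIPA and 57.7 and 53.5 CPM in +EIPA (log2 fold change -0.71, adjusted p = 0.0897, or 0.00321 with the block). Btg2, an immediate early gene that restrains proliferation, was at 228 and 252 CPM against 151 and 148 CPM (-0.64, adjusted p = 0.107, or 0.00254 with the block). Edn1, the peptide endothelin 1, was at 30.0 and 42.7 CPM against 15.5 and 19.9 CPM (-0.99, adjusted p = 0.152, or 0.00223 with the block). For Hbegf, Btg2 and Edn1 alike the treated libraries lay below the untreated ones. Gm14207 was at 34.1 and 32.9 CPM against 23.4 and 21.2 CPM (-0.54, adjusted p = 0.193, or 0.0401 with the block).

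All 10 immediate early genes listed had negative fold changes, with a median of -0.46 beside -0.01 over all genes tested. Of the 10, Fos and Jun were the 2 called, where 0.0272% of all genes were called lower. With the experiment as a block, which called 0.418% of all genes lower, the called genes of the list were 5, with Fosb, Egr1 and Btg2.

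A Fos UMI was seen in 84.6% and 84.2% of goblet cells in -EIPA and in 66.2% and 80.3% in +EIPA, and after thinning to 2000 UMIs in 50.4% and 57.2% against 28.8% and 36.2%. Absorptive cells thinned alike had a Fos UMI in 36.6% and 44.4% in -EIPA and in 16.5% and 18.5% in +EIPA, and free RNA was not removed from either class. Of the Fos UMIs of goblet cells, 4.95% to 7.84% lay in the top 5 cells. By mucus content, the log2 fold change of Fos was -1.30 in the lowest class and -1.15, -0.97 and -0.90 in the next ones, and it passed the threshold in the lowest alone (adjusted p = 0.00469). In the highest class the fold changes of Gip (-0.39) and Il1rn (-0.21) were negative and that of Sprr1a was 0.89, against 5.26 in the lowest. The difference between classes was not tested.

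As FOS and JUN together bind AP-1 motifs, the 250 bases before the RefSeq starts of the called genes were searched on both strands. The motif searched was TGANTCA, with any base at N. Of the 24 genes called higher, 19 had a promoter in the table and 5 held the motif (Cyp3a13, Emp1, Il1rn, Prl2c3 and Sprr1a), while 7.82% of all 27025 genes in the table did. Prl2c3 is among the 5 although its groups overlapped without the 5 cells that held most of its UMIs. Prl2c3 and Wincr1, both among the 19, passed the filter on low counts through the +EIPA libraries alone. The share of genes with the motif was not tested against that of all genes. Of the 3 genes called lower, each had a promoter and none held it. The windows of Sprr1a, which held it at -146 to -140 and at -116 to -110, and Cyp3a13, at -91 to -85, are shown as those of highest level in goblet cells among the 5. Capitals mark TGANTCA and, in Sprr1a, also CAGCTG at -173 to -168 and -33 to -28.
Sprr1a (GRCm38.p6, chr3:92485882-92486131, minus strand): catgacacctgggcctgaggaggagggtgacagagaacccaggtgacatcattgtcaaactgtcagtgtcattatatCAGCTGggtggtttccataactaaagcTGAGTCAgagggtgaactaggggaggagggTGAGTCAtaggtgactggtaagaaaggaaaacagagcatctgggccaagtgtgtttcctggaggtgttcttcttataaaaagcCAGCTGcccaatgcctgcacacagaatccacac
Cyp3a13 (GRCm38.p6, chr5:137921620-137921869, minus strand): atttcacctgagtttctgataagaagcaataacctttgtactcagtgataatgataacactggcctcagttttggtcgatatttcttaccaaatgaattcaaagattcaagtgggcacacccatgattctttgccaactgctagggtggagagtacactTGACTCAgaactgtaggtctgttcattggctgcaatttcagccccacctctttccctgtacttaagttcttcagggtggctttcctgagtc
The matches describe letters in these windows, and binding was not measured.

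Without the block, the lists of the goblet programme held no called gene, where 0.245% of all genes were called. With it 3 were called, Klf4 lower and 2 genes of mucin glycosylation higher, the sialyltransferase St3gal4 and Papss2, which makes the sulfate donor. The block called 0.418% of all genes lower and 3.14% higher. Of the 14 genes listed as mucus components, 7 outside the rule could be tested, with 5 positive and 2 negative fold changes and a median of 0.15. Tff3 stood at 0.27 ± 0.17 (SE) on the log2 scale (adjusted p = 0.808), Spink4, a secreted protease inhibitor, 0.18, and Agr2 0.13. The 22 genes of mucin glycosylation tested, of 29 listed, had a median of 0.05, with Galnt7, which starts O-glycans, at -0.14 and Gcnt3, which branches them, at 0.05. The 19 genes of granule traffic tested, of 22 listed, had a median of 0.09, led by level by Vamp8, a SNARE of granule release, at 0.22.

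The transcription factors listed for the goblet lineage lay mostly below 0. Of the 15 listed, 14 had a negative fold change and 1, Hes1, a positive one. Hes1 is a NOTCH target that represses Atoh1, not a factor of goblet fate. The median was -0.27 beside -0.01 over all genes tested, and none was called without the block. Spdef was at 103 and 102 CPM in -EIPA and 74.1 and 91.4 CPM in +EIPA (log2 fold change -0.25, SE 0.16, adjusted p = 0.814). Klf4 had a log2 fold change of -0.39 (adjusted p = 0.47), Creb3l1, a factor of secretory capacity, -0.24, and Sox9, a crypt factor, -0.36. Atoh1 was at 66.2 and 60.0 CPM against 61.1 and 57.1 CPM (-0.05, SE 0.13), within the spread of the libraries.

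Dll1, the NOTCH ligand of early secretory cells, was at 105 and 104 CPM in -EIPA and 67.6 and 60.2 CPM in +EIPA, and at 106 CPM in -Dox and 71.0 CPM in +Dox. The groups did not overlap, as was the case for 22.9% of all genes tested in this direction, and the log2 fold change of -0.67 (SE 0.13) was not called (adjusted p = 0.0978), except with the experiment as a block (Dll1 adjusted p = 0.00347) or with no filter on low counts (0.0310). Of the 12 listed NOTCH genes 8 could be tested, and 2 had positive and 6 negative fold changes, with a median of -0.18. Sox4, a factor of secretory progenitors, was at 430 and 407 CPM against 282 and 234 CPM (-0.65, adjusted p = 0.107, or 0.00164 with the block and 0.00951 by DESeq2), and at 323 and 180 CPM in -Dox and +Dox.

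**Figure D5:**
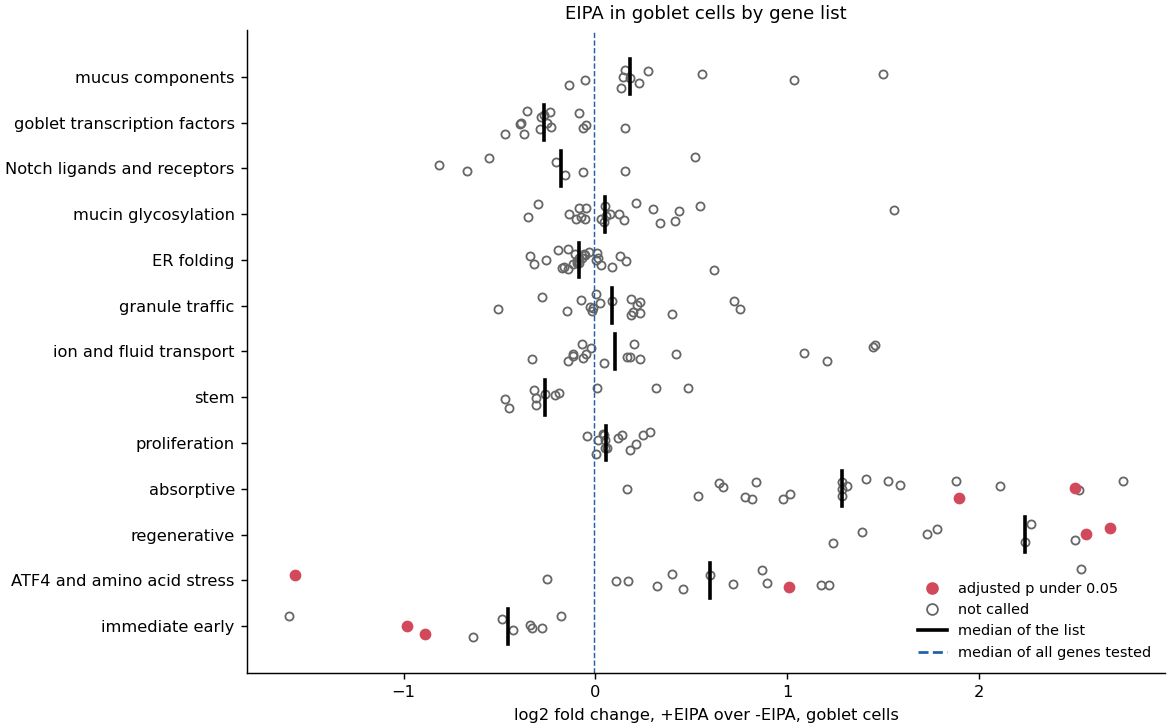
Log2 fold change with EIPA in goblet cells for the tested genes of 13 lists, each circle a gene (filled red where the adjusted p was under 0.05), with a black bar at the median of the list and a dashed line at the median of all genes tested. The absorptive and regenerative lists lie to the right with medians of 1.29 and 2.24, the immediate early list to the left with -0.46, and the mucus (4 genes of the rule included), glycosylation, folding and granule lists near 0.

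Genes of protein folding in the endoplasmic reticulum, on which mucin synthesis depends, had a median of -0.08 over 26 genes, with the chaperone Hspa5 at -0.03 and Hsp90b1 at -0.05. The 18 ion and fluid transport genes had a median of 0.10, with the chloride loader Slc12a2 at -0.12. No gene of these lists was called without the block, while with it 4 of the 18 transport genes were called higher, beside 3.14% of all genes, among them Slc9a2, a sodium-proton exchanger, Slc26a6, an anion exchanger, and Car2, a carbonic anhydrase. Of the 15 genes of ATF4 and amino acid stress, 13 had positive fold changes (1 of them passing the filter through +EIPA alone), with a median of 0.60. The 2 called were Atf3 (lower) and Psph, the last enzyme of serine synthesis (higher), where 0.0272% of all genes were called lower and 0.218% higher. Psph went from 31.4 and 30.6 CPM in -EIPA to 65.3 and 55.7 CPM in +EIPA (1.01, adjusted p = 0.0447). With the block 8 of the 15 were called higher and 1 lower, beside 3.14% and 0.418% of all genes. The 11 stem cell genes had a median of -0.27 and the 14 proliferation genes a median of 0.06, with none called with or without the block. Leaving out the genes that the rule limits, the 11 Paneth genes tested had a median of 0.41, the 11 enteroendocrine genes 0.06 with Gip the 1 called, and the 9 tuft genes 0.20 with none called. Beside the same shares of all genes, the block called 3 of the 11 Paneth genes higher (Defa21, Defa30 and Nupr1), 1 of the 11 enteroendocrine genes higher and 2 lower, and no tuft gene. Gcg was among the enteroendocrine genes called, and a single cell held 187 of its 210 UMIs in -EIPA replicate 2. Outside the 5 cells with most of its UMIs Gcg stood at 0.628 and 2.69 CPM in -EIPA and 0.704 and 1.81 CPM in +EIPA, and the groups overlapped.

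To ask whether EIPA acted on a gene by another amount in goblet cells than in the other cells of the same libraries, the interaction was tested over 15448 genes. It called 33 genes (0.214%), 18 higher in goblet cells (0.117%) and 15 lower (0.0971%). The other cells are a mixture of types whose shares differ between libraries. Lgals3 had a log2 fold change of 2.28 in goblet cells and 1.36 in the other cells, an interaction of 0.89 (adjusted p = 0.000197). Emp1 stood at 1.34 against 0.34 (0.97, adjusted p = 0.00213) and Tnfrsf12a, the receptor of TWEAK, at 1.24 against 0.33 (0.87, adjusted p = 0.00227). Mboat1, a membrane-bound acyltransferase, had an interaction of 0.95 and Gip of 2.83, the latter resting on the few cells above.

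In the other direction, Guca2b, the gut hormone uroguanylin, had a log2 fold change of 0.77 in goblet cells and 1.99 in the other cells (interaction -1.26, adjusted p = 5.44e-08). Guca2a, guanylin, stood at 0.33 against 1.24 (-0.86, adjusted p = 0.0118). Selenop, a selenium carrier (-0.85), Gde1, a phosphodiesterase (-0.84), and Selenom, a selenoprotein of the endoplasmic reticulum (-0.83), were the other 3 of largest size among genes at 20 CPM or more. DESeq2 called neither Guca2a nor Selenom (adjusted p = 1.00 for both), Selenom also lost its call with library size in place of TMM (adjusted p = 0.102), and Gde1 without -EIPA replicate 2 (-0.54, adjusted p = 0.138). For the AP-1 genes the interaction was 0.35 for Fos (adjusted p = 0.158), 0.08 for Jun and -0.06 for Atf3, so no difference between goblet and other cells was called. In the other cells edgeR called 0 of 15819 genes for EIPA, with 1574 at an unadjusted p under 0.05. That fit left out the pairing by experiment, and no fit with the block was made for these cells.

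Against the 14354 cells with 3 or more Paneth genes, 0 of 11590 genes had an interaction by edgeR (0%), with 317 at an unadjusted p under 0.05, and DESeq2 called 1. Fos had log2 fold changes of -0.98 in goblet and -0.93 in Paneth-gene cells, Atf3 of -1.56 and -1.61, Lgals3 of 2.28 and 1.93, and Sprr1a of 2.68 and 3.85. A missed threshold does not show that the classes responded alike.

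With Dox the goblet cells could be compared without a test, as there was 1 library a group. Of 5827 genes at 20 CPM or more in either library, 99 differed by at least 2-fold (1.7%), 89 higher (1.53%) and 10 lower (0.172%) in +Dox. The largest ratios among genes at 50 CPM or more were for apolipoproteins. Apoc2 was at 9.37 CPM in -Dox and 88.4 CPM in +Dox, Apoc3 at 24.8 and 200 CPM, Apoa1 at 83.8 and 655 CPM and Apoa4 at 32.1 and 226 CPM. Areg (48.5 and 253 CPM), the antimicrobial genes Reg3a (22.8 and 104 CPM) and Leap2 (23.8 and 101 CPM), Cyp3a13 (39.3 and 165 CPM), the protease inhibitor Spink1 (53.2 and 215 CPM) and Prxl2a (23.4 and 87.1 CPM) followed. The summed level of the absorptive list was 4702 CPM in -Dox and 11038 CPM in +Dox goblet cells, beside 10510 and 16253 CPM in the barcodes under 1000 genes.

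On the lower side, 2 of the 10 immediate early genes listed, Fosb and Fos, were at least 2-fold lower. Fosb was at 91.0 CPM in -Dox and 25.1 CPM in +Dox, Fos at 648 and 301 CPM, Atf3 at 78.9 and 23.6 CPM and Jun at 371 and 203 CPM. Thbs1, the matrix protein thrombospondin 1, was at 60.3 and 24.6 CPM, and the non-coding transcript Gm26917 at 236 and 68.9 CPM. Of the 10 genes of largest ratio on this side, the others were Sox4, given above, 2610528A11Rik (178 and 84.1 CPM), the non-coding Tsix (120 and 66.0 CPM) and the endoplasmic reticulum protein Creld2 (58.2 and 32.5 CPM). Tff3, Zg16 and Clca1 were higher in +Dox and Spdef lower (107 and 70.8 CPM), with the values given above.

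The EIPA and Dox comparisons share no library, so genes called with EIPA could be read in the Dox pair. Fos, Jun and Atf3, called lower with EIPA, were lower in +Dox too, with the values just given. Lgals3 was at 36.6 CPM in -Dox and 116 CPM in +Dox, or 30.2 and 65.5 CPM outside the 5 cells with most of its UMIs in each library. Ly6a was at 5.15 and 28.4 CPM, with 69.2% and 77.6% of its UMIs in 5 cells and 1.58 and 6.38 CPM outside them. Sprr1a was at 17.2 and 33.3 CPM, but a single cell held 97 of its 130 UMIs in -Dox, and outside 5 cells it stood at 1.58 and 16.2 CPM. Sprr2a3 was near equal, at 173 and 170 CPM. Genes counted at 20 CPM or more in either library can pass through the library in which they are high, so no count over the called genes is given. The clone, the sort gate and Dox cannot be told apart in this pair.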

How the data were processed

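Single cells of 6 organoid libraries (10x Genomics 3' kit) were analysed. The deposited values are raw counts, that is UMIs per gene and cell barcode: the authors aligned reads with Cell Ranger 6.1.2 to mm10 (GRCm38) and deposited them without normalization. Here the cells were chosen as the report states, absorptive cells being those with 100 or more UMIs per 10000 of 6 absorptive genes, Apoa1 and Fabp1 among them. Cells that reached the threshold of the mucus genes were left out of the absorptive class. Counts were summed per library and divided by their total for CPM. The WT comparison used edgeR 4.0.16 under R 4.3.3 (TMM scaling, filterByExpr, quasi-likelihood F test, Benjamini-Hochberg over all genes tested, threshold 0.05), and interactions with the library as a block. DESeq2 1.42.0 was an alternative. Python 3.11.15 with scanpy 1.11.5 did the rest.

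The members, gene lists and tests were chosen with earlier results of these data known. Named are the genes of the rule, up to 6 of each list by calls and then level, the 10 largest called changes a direction at 20 CPM or more (by p where fewer were called), 5 a direction for the interaction and 10 a direction for Dox at 50 CPM or more. Other called genes, and Lyz1 and Mptx2, were named after their values were seen. The SE is the log2 fold change over the square root of F. Scrublet's automatic threshold marked 0.00793% of cells in -EIPA replicate 1 and 0 in 2 other libraries, so it was taken to have failed, and the 10% of cells with the highest score per library were removed instead, in an alternative only. Cells of 1 library are not replicates. Ambient RNA was not removed. The precision of cell shares was given as exact binomial intervals at 95%. On simulated counts edgeR recovered 73% of 2-fold and 100% of 4-fold changes in goblet cells (11017 genes, 15 false calls), and the interaction 40% and 98% (15448 genes, 6 false calls). Changes were set only in genes above a floor of mean counts, so the recovery gives no rate for genes of low counts. The goblet simulation held no experiment effect, and the interaction simulation used a fixed dispersion and library spread, not estimates from these data. Same-numbered WT libraries deviated together in goblet cells (r = 0.417 across 11017 genes, 2 pairs), and the study's experiments pair them. With 2 libraries a group the 2 pairs mirror each other and give 1 value of r. The EIPA fit within goblet cells left this pairing out, except where the block is named. Values of some genes, the targeted gene among them, are not reported here, though counts over lists and calls include them.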

Additional observations from a re-analysis of the deposited data

Results flagged for a closer look

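The effect of EIPA differed between goblet cells and all other cells of the same libraries for 33 genes, by an interaction term in edgeR. Among called genes at 20 CPM or more, those of largest difference were Gip (2.83 on the log2 scale), Emp1 (0.97), Mboat1 (0.95), Lgals3 (0.89) and Tnfrsf12a (0.87), each higher with EIPA in goblet cells relative to the other cells. In the other direction they were Guca2b (-1.26), Guca2a (-0.86), Selenop (-0.85), Gde1 (-0.84) and Selenom (-0.83). Guca2a and Selenom lost their call with DESeq2, Selenom also with library size in place of TMM, and Gde1 without -EIPA replicate 2. The other cells are a mixture of cell types, and the difference for Gip came with 93.1% and 90.5% of its UMIs in 5 cells of the +EIPA libraries. The part of the cell mixture in these differences was not tested.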

How the results depend on the processing

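The count of 27 genes called with EIPA in goblet cells was 51 with library size in place of TMM, 215 with no filter on low counts, 87 with DESeq2, 85 without the cells of highest doublet score, 106 with strict limits on cells, 42 at 20 or more mucus UMIs per 10000, 0 at 50 or more (562 at an unadjusted p under 0.05) and 1 among cells with 0 Paneth genes. It was 8 with no limit on Paneth genes, and 55 to 264 with 1 library left out, 55 without +EIPA replicate 2. With the replicate block, which the pairing by experiment warrants but which leaves 1 residual degree of freedom per gene, it was 392. The interaction with the other cells went from 33 genes to 151 with no filter, 88 without the cells of highest doublet score and 80 to 215 with 1 library left out. Against Paneth-gene cells it went from 0 to 45 with no filter, 1 with DESeq2 and 1 to 18 with 1 library left out. The mean EIPA ratio of the goblet share, 0.756, was 0.856 at 20 or more mucus UMIs, 0.994 at 50 or more (0.780 and 1.21 by experiment, so that the second turned), 0.510 with 0 Paneth genes, 0.793 with strict limits, 0.715 without the cells of highest doublet score and 0.857 thinned to 2000 UMIs. It turned to 1.28 with no Paneth limit and 1.00 with Paneth genes counted at 20 per 10000, and these last alternatives were chosen after seeing the data. The 99 genes 2-fold apart with Dox were 21 at 4-fold, 165 at 50 or more mucus UMIs, 1304 with 0 Paneth genes and 64 with no Paneth limit. The choice of 0 Paneth genes left 9 cells in +EIPA replicate 2, 32 in -EIPA replicate 2 and 7 in +Dox, so all values under it rest on few cells there. The sign turned for Spdef (0.22 with 0 Paneth genes) and Atoh1 (-0.12 to 0.019 with 1 library left out, the latter without -EIPA replicate 1, and 0.28 with 0 Paneth genes), neither of them called. None of the 27 called genes turned in direction under these alternatives, while in the fits by mucus class Gip and Il1rn turned at 100 or more. Fosb, Dll1 and Sox4, not called, were called with the replicate block. The causes of these shifts were not tested.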
